A study of Mus musculus with 3 samples.

Results

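Mgmt, Alkbh2, Alkbh3 and Mpg encode enzymes that undo the damage alkylating agents do to DNA bases, and their tag counts were followed in mouse skin over 2 days after cyclophosphamide. The 4 genes were looked up among 20595 UniGene clusters, of which the named ones stood for 14575 genes. A cluster was assigned to a gene when its description named it or when one of its tags matched transcripts of that gene alone. On these terms 3 of the 4 genes were listed (Mgmt, Mpg and Alkbh3, with 1 cluster each), and 2 of the 4, Mgmt and Mpg, had the 15 or more tags summed over the libraries that a comparison required. Mgmt had been chosen with its day 1 and day 2 counts known, so its values are given as a description and without a test.

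Alkylating agents add carbon groups to the oxygens and ring nitrogens of DNA bases. Mgmt, the O6-methylguanine-DNA methyltransferase, takes the group from the O6 position of guanine onto one of its own cysteines and is used up in doing so. Alkbh2 and Alkbh3 are iron-dependent dioxygenases that remove methyl groups from ring nitrogens such as those of 1-methyladenine and 3-methylcytosine, Alkbh2 mainly in double-stranded DNA and Alkbh3 in single-stranded DNA and RNA. Mpg works differently from the label of the group: this N-methylpurine glycosylase cuts the damaged purine off the sugar and so starts base excision repair, and it does not restore the base itself. Cyclophosphamide becomes a DNA cross-linking mustard only after activation, mostly in the liver. In mice, induction of Mgmt by ionising radiation is known to depend on p53.

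Male C57BL/6 mice aged 2 months were depilated to start hair growth, and whole skin was the source of the RNA; depilation preceded the injection by 9 days. There were 3 libraries in 3 groups, 1 per group: untreated skin (day 0), skin 1 day after 150 mg/kg cyclophosphamide given into the peritoneum (day 1) and skin 2 days after it (day 2). The dose is per kg in the series design text, where the sample labels have km. All 3 groups share strain, sex and depilation, and no untreated skin of the later days was profiled, so drug and time since depilation cannot be told apart. How many mice a library stands for is unknown.

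Tags in the tables numbered 2731787 at day 0, 2859653 at day 1 and 2636804 at day 2. The skin label fitted its markers, with all 6 keratinocyte and all 6 fibroblast markers listed in each library. Whole skin mixes cell types, so fewer cells of a type and less RNA per cell cannot be told apart. Levels are tags per 1000000 tags, with library sizes scaled by TMM (trimmed mean of M values), and are written CPM. Ratios are log2 ratios with a pseudocount of 0.5 tags, and their 95% intervals are exact and cover counting error only. With 1 library per group no difference has a replicate check, and no test between groups was made. The smallest copy number in any table was 2, so a gene that is not listed need not have had 0 tags.

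Each transcript was counted through 21-base tags, CATG and the 17 bases after it. The tags of the 3 listed genes are shown because the values below are sums of their copies (with 1 unmatched tag of Alkbh3 added), and they are printed with the NlaIII site CATG in capitals. Sites are numbered from the 3' end of the gene as deposited, and positions are on GRCm38 from an exact match to GENCODE M21 transcripts.
Mgmt site 17: CATGagggcatcccgaccgga
Mgmt site 18: CATGggatacggttgctcagt
Mgmt site 16: CATGgttattgttctattttt
Mgmt site 7: CATGctaccttgacacccaca
Mgmt site 1: CATGaaacaccagcacggtcg
Mpg site 1: CATGggtcagtgtggtagaca
Alkbh3 site 6: CATGgtatggagagcttcctt
None of these 7 tags had another tag within 1 or 2 bases of it among the 59806 distinct tags of the tables.

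Mgmt was barely counted in untreated skin and well counted on both days after the drug. Its cluster held 5 tags at day 0, 99 at day 1 and 78 at day 2, which is 1.78, 36.8 and 28.7 CPM. Day 0 was the low library, and the exact 95% Poisson interval of its level (0.577 to 4.15 CPM) lay below those of day 1 (29.9 to 44.8) and day 2 (22.6 to 35.8). The log2 ratio of day 1 over day 0 was 4.24 (3.10 to 6.03), an 18.9-fold difference with an interval from 8.6-fold to 65.2-fold. The log2 ratio of day 2 over day 0 was 3.88 (2.73 to 5.67), a 14.7-fold difference (6.6 to 51.0). Both ratios share the 5 tags of the day 0 library, whose small number sets the width of both intervals. Between the treated libraries the ratio of day 2 over day 1 was -0.36 (-0.81 to 0.08), and this interval includes 0.

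**Figure D1:**
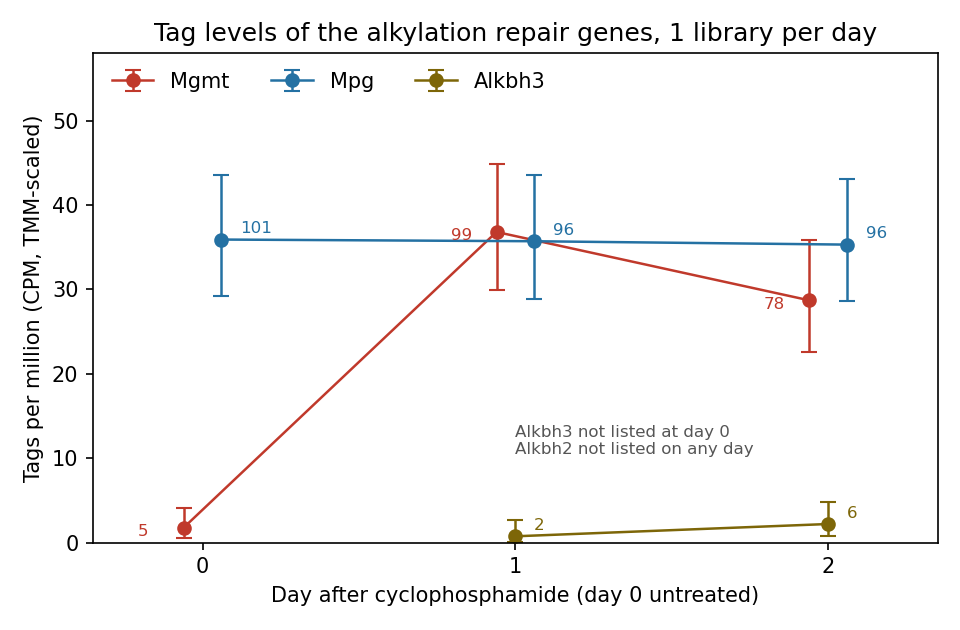
Level of each listed gene in CPM (TMM-scaled) on the y axis against day on the x axis, 1 library per day; bars are exact 95% Poisson intervals of the counts and the small numbers are tags. Mgmt goes from 5 tags to 99 and 78, Mpg has 96 to 101, and Alkbh3 has at most 6.

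Against all clusters, Mgmt stood at the end of the distribution at day 1. Of 13812 clusters with 15 or more tags, 5.81% were 2-fold or more higher at day 1 than at day 0 and 6.80% as much lower. These shares were 9.09% and 8.20% for day 2 over day 0, and 7.77% and 4.90% for day 2 over day 1. Among 4557 clusters with 100 to 400 summed tags, a range that includes the 182 of Mgmt, 3.38% were 2-fold or more higher at day 1 and 6.52% at day 2, both against day 0, and 4.08% were so at day 2 against day 1. At day 1 there were 19 clusters at or above the Mgmt ratio, Mgmt included, and the other 18 were not listed at day 0, so that their ratios rest on the pseudocount. At day 2 there were 46, of which 36 were not listed at day 0. Since the gene was chosen from these contrasts, its rank describes the choice and supports nothing further.

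**Figure D2:**
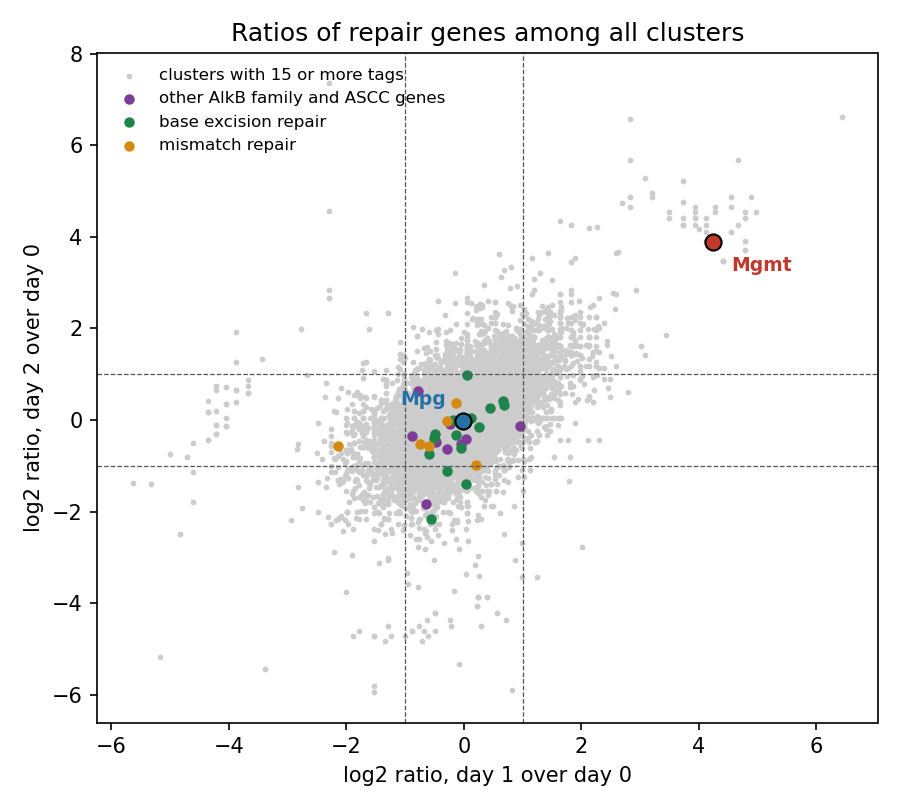
Each point is a cluster with 15 or more tags or a summed gene, with the log2 ratio of day 1 over day 0 on the x axis and of day 2 over day 0 on the y axis; dashed lines mark 2-fold and unlisted counts enter as the pseudocount. Mgmt lies at 4.24 and 3.88, Mpg at -0.01 and -0.03, and most repair genes lie inside the dashed lines. The axes share the day 0 library.

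The Mgmt gene spans chr7:136894614-137130266 on the plus strand and has 1 annotated transcript, of 2894 bases in 5 exons with 18 CATG tags. Tags of 5 of these sites were listed, and 13 were never listed. Site 17, at chr7:137127984-137128004, lies in the coding part of exon 5, where its tag starts in codon 176 of 211. It had 5 copies at day 0, 86 at day 1 and 68 at day 2. It thus held all 5 tags at day 0, 86.9% at day 1 (Wilson 95% interval 78.8 to 92.2) and 87.2% at day 2 (78.0 to 92.9). On its own it gave a log2 ratio of 4.04 (2.89 to 5.83) at day 1 and 3.68 (2.52 to 5.48) at day 2.

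The remaining Mgmt sites together had no listed copy at day 0, 13 at day 1 and 10 at day 2. Site 18, in coding exon 2 at chr7:136951364-136951384, had 5 copies at day 1 and 6 at day 2. Site 1, the one nearest the annotated 3' end, lies in the 3' UTR at chr7:137130140-137130160 and had 6 copies at day 1 and 2 at day 2. Site 7, in the 3' UTR at chr7:137129138-137129158, had 2 copies at day 1 only, and site 16, in the 3' UTR at chr7:137128281-137128301, had 2 at day 2 only. Thus sites 1, 17 and 18 were each listed on both treated days, and only site 17 was listed in untreated skin. With 5 tags there and no copy number below 2 in the tables, the use of the other sites at day 0 is unknown.

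**Figure D3:**
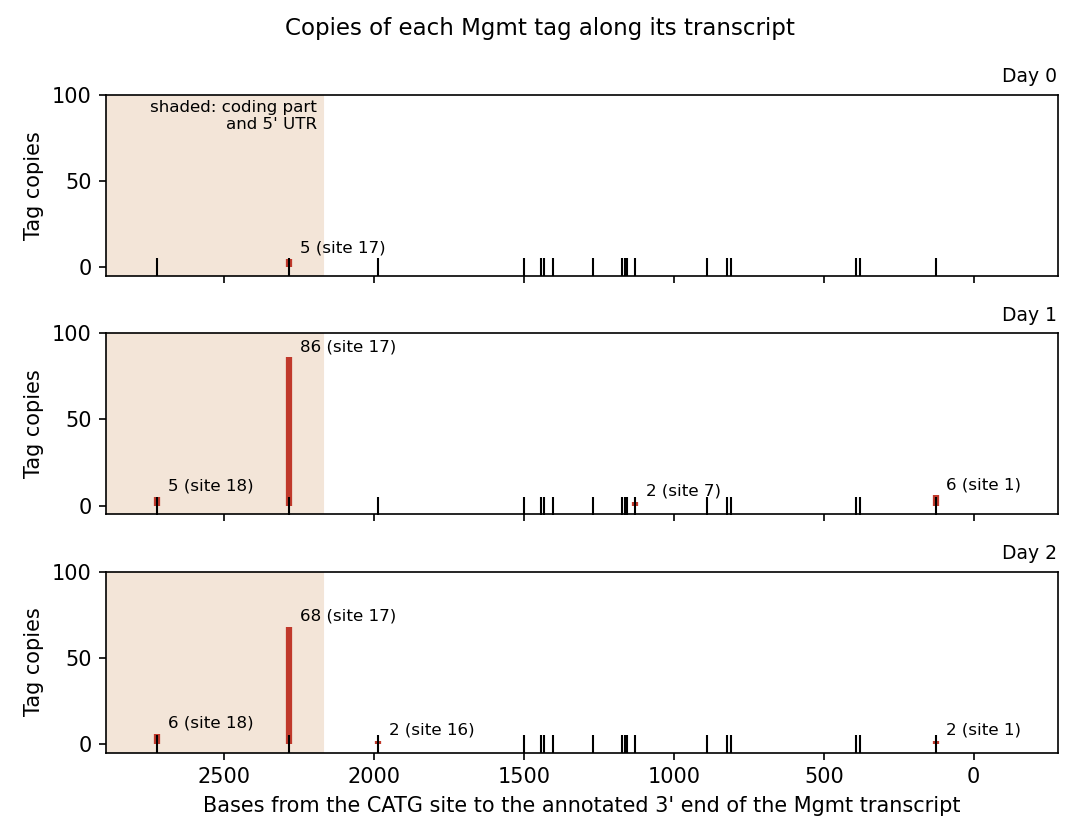
Copies of each Mgmt tag (y axis, tag copies) against the distance in bases from its CATG site to the annotated 3' end of the transcript (x axis), 1 panel per library; black ticks are the 18 sites. Site 17, with 5, 86 and 68 copies, is the tallest bar on each day, and the long 3' UTR to its right holds few tags.

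This use of sites differed from that of most clusters. Over all clusters the 3'-most site held 69.1%, 71.1% and 69.7% of the tags at days 0, 1 and 2. Of 7954 clusters with 100 or more tags, the 3'-most site was the main one in 66.9%, and a site numbered 17 or higher was the main one in 2.74%. A site numbered 10 or higher was the main one in 8.5%, and in 3.58% it also held 80% or more of the tags. The number of sites in each gene was not taken into account, so genes with too few sites to reach these numbers are counted too. The main Mgmt tag begins 2283 bases before the annotated transcript end, with 16 further CATG sites after it, of which 3 were ever listed. The 276 bases between the end of this tag and site 16 (transcript positions 633 to 908) contain the poly(A) signal variant ATTAAA at positions 788 to 793, after the stop codon, which ends at 722. The same letters occur on the same strand in 7.8% of 591224 windows of 276 bases that follow a CATG tag in protein-coding transcripts, and AATAAA or ATTAAA in 15.8%. These windows take in coding and untranslated parts alike and count shared exons once per transcript. They are not matched to the Mgmt window, which lies mostly after the stop codon, so the shares do not tell how rare the match is. The match describes the letters, and whether transcripts end there was not tested.

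Mpg had nearly equal counts in the 3 libraries. The glycosylase had 101, 96 and 96 tags at days 0, 1 and 2, or 35.9, 35.7 and 35.3 CPM, and the Poisson intervals of the 3 levels overlapped almost fully. Its log2 ratio was -0.01 (-0.43 to 0.41) for day 1 over day 0, -0.03 (-0.44 to 0.39) for day 2 over day 0 and -0.02 (-0.44 to 0.41) for day 2 over day 1. These intervals leave out a difference of 2-fold by counting error, though not a smaller one. All its tags were the single tag shown above, at chr11:32231904-32231924 on the plus strand, in the gene at chr11:32226505-32232700. In the deposited table this is site 1, but in the longest annotated coding transcript (1737 bases) it is the fifth site from the 3' end, in coding exon 4 and starting 797 bases before the end. In an annotated nonsense-mediated decay transcript of 1404 bases it is the 3'-most site. Of 26 distinct tags in the 4 annotated Mpg transcripts, 1 was listed.

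Alkbh3 was close to the listing limit. Its cluster was not listed at day 0 and had 2 tags at day 1 and 6 at day 2, or 0.744 and 2.20 CPM, with 8 tags in all. The ratio of day 2 over day 1 was 1.37 (-0.92 to 4.91), an interval that spans 0 widely, and no ratio is given against day 0. Of its tags, only the 3 copies of site 6 at day 2 match an annotated Alkbh3 transcript, at chr2:94001463-94001483 on the minus strand, in coding exon 7 of 10. The other tag, with 2 copies at day 1 and 3 at day 2, has no match in the reference transcripts, and the cluster is tied to Alkbh3 by site 6 and by a description that names prostate cancer antigen-1, an older name of human ALKBH3. Of 7 distinct tags in the 11 annotated Alkbh3 transcripts, 1 was listed. The gene lies at chr2:93980550-94010807.

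Alkbh2 was not listed on any day, by description or by tag. The gene, at chr5:114123926-114128218 on the minus strand, offers the method few annotated sites. The 2 tags of its annotated transcripts are shown because the annotation holds no other.
Alkbh2 second site from the 3' end: CATGcctctctgcgcttgcgt
Alkbh2 first site from the 3' end: CATGtgtagccttttgggttt
Both lie in the 5' UTR of exon 1, at chr5:114128046-114128066 and chr5:114128020-114128040. In the longest coding transcript (1073 bases) they start 963 and 937 bases before the 3' end. Of the 3 annotated transcripts, 1 (899 bases) has no CATG tag and would give none. The level of Alkbh2 in these libraries is therefore unknown.

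None of the measured relatives of the Alkbh genes and partners of Alkbh3 was 2-fold or more higher than at day 0 on either treated day. The list held Alkbh1, Alkbh4 to Alkbh8, Fto, an RNA demethylase of the same family, and the genes of the ASCC complex, in which the helicase Ascc3 unwinds DNA for Alkbh3 in human cells. Of 10 genes 9 had enough tags. At day 1 none was 2-fold or more higher or lower than at day 0, beside 5.81% and 6.80% of all clusters, which for 9 genes is near that background. Their median log2 ratio was -0.29, against -0.02 over all clusters, with a range from -0.88 to 0.96. At day 2 the median was -0.42, against 0.01 over all clusters. None of 9 was past 2-fold higher and 1 was lower, beside 9.09% and 8.20% of all clusters, which for 9 genes is near that background. Alkbh5, an RNA demethylase and the family member with the most tags, had 309, 251 and 283 tags and ratios of -0.23 (-0.48 to 0.01) and -0.08 (-0.32 to 0.16) against day 0.

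The 3 ASCC genes had different patterns. Ascc1 had 137, 83 and 37 tags, lowest at day 2, with a ratio of -1.83 (-2.41 to -1.31) for day 2 over day 0 and -1.17 (-1.78 to -0.61) for day 2 over day 1. Ascc3 had 81, 45 and 122 tags, highest at day 2 and 2-fold or more higher there than at day 1 at 1.41 (0.92 to 1.95). Ascc2, another subunit, had 32, 60 and 28 tags, highest at day 1, with -1.10 (-1.82 to -0.45) for day 2 over day 1. The list thus had 1 of 9 higher and 2 of 9 lower for day 2 over day 1, beside 7.77% and 4.90% of all clusters, and its median was -0.35 against -0.02.

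Base excision repair completes what Mpg starts. Of 23 genes 15 had enough tags. At day 1 none of them was past 2-fold in either direction, beside 5.81% higher and 6.80% lower of all clusters, which for 15 genes is near that background. The median ratio was -0.05, against -0.02 over all clusters, with 7 ratios above 0 and 8 below. Polb, the DNA polymerase that fills the gap, had 452, 587 and 523 tags, with a ratio of 0.44 (0.26 to 0.62) at day 1. Fen1, the flap endonuclease of the long patch branch, had 199, 305 and 240 tags, with 0.68 (0.42 to 0.95), the highest ratio of the 15. Apex1, which cuts the sugar that a glycosylase leaves bare, had 176, 163 and 111 tags, with -0.05 (-0.36 to 0.27) at day 1.

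At day 2, 3 of 15 base excision genes were 2-fold or more lower than at day 0 and none was higher, beside 8.20% and 9.09% of all clusters, and the median ratio was -0.30 against 0.01. Lig3, the ligase that seals the nick, had 63, 62 and 23 tags, lowest at day 2, with a ratio of -1.39 (-2.16 to -0.70). Its sites 8 and 1 both had fewer copies at day 2 than at day 0. Site 8 had 32, 47 and 10 copies, and site 1 had 24, 11 and 9. Neil1, a glycosylase for oxidised bases, had 23, 18 and 10 tags, with -1.12 (-2.39 to -0.03). Tdg, a glycosylase for mismatched thymine, had 11, 7 and 2 tags, with -2.16 (-5.63 to -0.22). Its only tag unique to the gene had 4 copies at day 0 and was not listed later. All Tdg tags of days 1 and 2 also occur in other genes, so the Tdg ratios cannot be credited to Tdg alone. For day 2 over day 1, Lig3 at -1.43 (-2.21 to -0.74) and Tdg at -1.60 (-5.13 to 0.57) were past 2-fold lower and none of the 15 was higher, beside 4.90% and 7.77% of all clusters.

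Mismatch repair acts on the mispairs that unrepaired O6-methylguanine leaves after replication. Of 9 genes 6 had enough tags. Against day 0, Pms2, a subunit of the nicking complex, was past 2-fold lower at day 1, with 11, 2 and 7 tags and a ratio of -2.14 (-5.61 to -0.20), and none of the 6 was past 2-fold at day 2. Of all clusters, 6.80% were lower and 5.81% higher at day 1, and 8.20% and 9.09% at day 2. The median ratio was -0.45 at day 1, against -0.02 over all clusters, and -0.54 at day 2, against 0.01. Msh6, which recognises the mispair, had 112, 98 and 141 tags, with -0.13 (-0.53 to 0.28) and 0.38 (0.01 to 0.75) against day 0. For day 2 over day 1, Pms2 was higher at 1.57 (-0.60 to 5.09) and Exo1, the exonuclease of this pathway, was lower at -1.20 (-2.55 to -0.05), with 19, 21 and 9 tags. That is 1 of 6 in each direction, beside 7.77% higher and 4.90% lower of all clusters, and the median was 0.25 against -0.02.

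Of the 4 protein-coding genes next to Mgmt, 3 were listed, and none of these 3 was past 2-fold at day 1 or day 2 against day 0. Of all clusters, 5.81% were higher and 6.80% lower at day 1, and 9.09% and 8.20% at day 2, so none of 3 is near that background. The other, 9430038I01Rik, was not listed in any library. Mki67, the proliferation marker and the nearest annotated protein-coding gene before Mgmt, lies 1178252 bases away and had 239, 156 and 218 tags. Ptpre, a tyrosine phosphatase before that, lies 1208320 bases from Mgmt and had 91, 106 and 93. Ebf3, a transcription factor gene on the minus strand whose 3' end lies 63406 bases beyond the end of Mgmt, had 6, 10 and 4. The log2 ratios of day 1 over day 0 were -0.55 (-0.85 to -0.25) for Mki67, 0.28 (-0.13 to 0.71) for Ptpre and 0.75 (-0.80 to 2.55) for Ebf3. For day 2 over day 1 they were 0.46 (0.16 to 0.77), -0.21 (-0.62 to 0.21) and -1.24 (-3.47 to 0.45). Ebf3 was thus past 2-fold lower there, beside 4.90% of all clusters lower and 7.77% higher. These neighbours were chosen by position alone, after the values of Mgmt were known.

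The genes with the pattern most like that of Mgmt were taken by the distance between their pairs of ratios (day 1 and day 2, each over day 0), over 3 libraries and 9244 named clusters with 50 or more tags. Of the 5 nearest, 4 are described. Kcnc4, a potassium channel subunit, with 4, 26 and 55 tags, was at a distance of 1.63 on the log2 scale. Krt7, a keratin of simple epithelia, with 3, 25 and 24 tags, was at 1.67. Ccl12, a monocyte-attracting chemokine, with 8, 52 and 220 tags, was at 1.77, and Prg4, a lubricating proteoglycan, with 2, 20 and 95 tags, was at 1.82. These 4 had 8 or fewer tags at day 0, and a likeness over 3 libraries is a description only.

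The summed levels of cell type markers also differed between these libraries. For 12 macrophage and monocyte markers they were 265.9, 283.7 and 600.9 CPM at days 0, 1 and 2, with 9 listed and Cd68, Cd14 and C1qa without a named cluster. For 9 skeletal muscle markers, all listed in each library, they were 10041.1, 15564.3 and 21086.0 CPM. Both sums were highest at day 2. The 8 hair matrix and inner root sheath markers summed to 34067.9, 50983.0 and 19529.0 CPM, with Lef1 listed at day 0 only. The 6 keratinocyte markers summed to 12250.7, 16514.7 and 15559.1 CPM, and the 6 fibroblast markers to 2980.9, 1903.3 and 3319.8 CPM. Red cell markers were lowest at day 2, with 1832.1, 1655.3 and 143.6 CPM over 5 genes, of which Hbb-bt was never listed and Hba-a2 not at day 2. The 6 T cell markers summed to 17.4, 17.8 and 17.6 CPM, with Cd3e and Cd3g not listed under their names. Adipocyte markers (3723.5, 2585.3 and 2058.8 CPM), endothelial markers (74.6, 82.2 and 126.0 CPM, Kdr listed at day 1 only) and melanocyte markers (515.1, 687.5 and 619.7 CPM) completed the set. Over all 10 lists the log2 ratio of the summed level for day 1 over day 0 lay between -0.65 and 0.63. For day 2 over day 0 it lay between -3.67 (red cells) and 1.18 (macrophages and monocytes). The part of these cell types in the Mgmt counts was not tested.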

How the data were processed

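Tags of polyadenylated RNA (NlaIII sites, 21 bases, Illumina Genome Analyzer) were assigned by the authors to UniGene clusters, per the file headers and the labels' protocols; aligner, mismatches and build are not stated there. The deposited counts are raw tags per cluster, per the file headers. When added up, the copy numbers of a cluster summed to its count without exception. The deposited TPM is the same count per 1000000 kept tags (6030092, 6070061 and 5666061 at days 0, 1 and 2, worked out from the counts and TPM) and served only as an alternative scaling.

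Tags were matched exactly to the sense strand of GENCODE M21 transcripts (GRCm38); a cluster took the gene holding at least 80% of its matched and 50% of all tags, otherwise the symbol of its RefSeq accession. Of 20595 clusters, 15159 were named by unique tags, 684 by shared tags and 195 by accession, and 4557 stayed unnamed. Clusters of one name were summed for lists. Library sizes were scaled by TMM (edgeR 4.0.16; factors 1.03, 0.94 and 1.03); DESeq2 1.42.0 size factors were an alternative. Intervals of ratios are Clopper-Pearson intervals of the conditional binomial at 95% (SciPy 1.17.1). Their calculation was checked on simulated Poisson counts, which cannot show how well they cover error in the real libraries. Copies made by PCR count like separate molecules, so intervals cover counting error only. Named were the 4 genes, each list gene past 2-fold and the 5 genes nearest to Mgmt, of which 1 is not reported here; further list genes, all neighbours of Mgmt and sites were named after their values were seen. Members and lists were chosen with earlier results of these data known.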

Additional observations from a re-analysis of the deposited data

How the results depend on the processing

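The Mgmt ratio ranged from 4.04 to 4.37 for day 1 over day 0 and from 3.68 to 4.01 for day 2 over day 0 over the settings that gave a value (3 other scalings, 2 pseudocounts, unique tags, the main site alone and clusters by description). The 3'-most site alone and the sites without the main tag had no listed copy at day 0 and gave no ratio against it. For day 2 over day 1 the 3'-most site alone gave -1.40, from 6 and 2 copies. No other member ratio left its counting interval in 60 recomputed values, and Alkbh2, and Alkbh3 against day 0, gave none. Without a filter on low counts, clusters past 2-fold numbered 2463 higher and 3193 lower for day 1 over day 0, 3378 and 3249 for day 2 over day 0, and 3297 and 2328 for day 2 over day 1. With 50 or more tags they numbered 368 and 369, 671 and 623, and 456 and 295. Where the interval also had to leave out a ratio of 1, they numbered 496 and 580 for day 1 over day 0 and 672 and 436 for day 2 over day 1. In the lists, scaling by table totals gave 1 AlkB or ASCC gene lower for day 1 over day 0, 1 lower for day 2 over day 1 and 1 base excision gene higher for day 2 over day 1. Scaling by kept tags gave 1 AlkB or ASCC gene lower and 1 base excision gene higher for day 2 over day 1, and 1 base excision gene higher for day 2 over day 0. With the interval rule, mismatch genes higher for day 2 over day 1 went to 0 and base excision genes lower to 1. The fewer clusters and stricter rule account for the smaller counts by construction; the cause of the other shifts was not tested. No paired analysis was possible because each group has 1 library. Genes with few tags, such as Alkbh3, are limited by depth.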
